A study of Danio rerio with 68 samples.

Results

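The genes gfap, cyp19a1b, slc1a2b, glula, glulb, s100b and aqp4 were followed as markers of radial glia and astroglia. They were chosen by symbol, and each of the 7 symbols matched 1 row among the 32677 genes of the counts table. The RNA-seq libraries were made from 3 tissues, brain, liver and skin, of male zebrafish. For 3 or 8 weeks, 36-month fish lived in tanks with 3.75 nM rotenone, an inhibitor of mitochondrial complex I, beside controls of 36 months and controls of 12 months kept for the same times. The treatment protocol gives the control tanks DMSO, while the label of each control fish gives its treatment as none, so whether every control received the solvent is not certain. In brain and skin, the groups sampled at 3 and 8 weeks held 5 and 6 rotenone fish, 3 and 4 controls of 36 months, and 3 and 3 controls of 12 months. In liver they held 4 and 6 rotenone fish, 2 and 3 controls of 36 months, and 2 and 3 controls of 12 months. Rotenone was analysed in 36-month fish alone. The 12- and 36-month fish were different fish, so age cannot be told apart from stock or rearing. The fish sampled at 3 and at 8 weeks were also different fish, so time in the tanks cannot be told apart from the occasion of sampling. The sources used here give no strain and no tank for a fish, and p-values therefore reflect only how much single fish differed, some of which may have shared a tank.

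In adult fish, radial glia persist along the brain ventricles, serve as neural stem cells and take on much of the work that astrocytes do in mammals. Gfap is the intermediate filament protein of these cells, and cyp19a1b encodes brain aromatase, which makes estrogens from androgens and is a known radial glial enzyme in teleosts. The transporter encoded by slc1a2b takes up glutamate released at synapses, and glutamine synthetase, encoded by glula and glulb, turns it into glutamine. S100b is a small calcium-binding protein that in mammals marks astrocytes and part of the oligodendrocyte lineage. Aqp4 is, in mammals, the water channel of astrocyte endfeet on blood vessels.

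Total counts were 24.1 to 54.9 M in the 24 brain libraries, 28.7 to 47.3 M in the 20 liver libraries and 24.3 to 34.4 M in the 24 skin libraries. The 25 genes matched to the neuron list together held 1.25 to 1.70% of the counts in brains. They held 0.000582 to 0.00509% in livers and 0.00235 to 0.00810% in skins. Levels are given as the authors' RPKM (reads per kilobase of transcript, scaled to depth) where genes are compared with each other, and as CPM (counts scaled to library size by TMM within a tissue) where fish are compared. A gene counted as called when its p from edgeR's quasi-likelihood F test, adjusted by Benjamini-Hochberg over every gene tested in that tissue, was under 0.05. Shares of all genes called refer to this test, and none is given for other tools or alternative fits. The figure after ± is the standard error of a log2 fold change, or the standard deviation of a level. The 2 rotenone brains of 3 weeks numbered 3 and 4 were treated as apart, since their counts fell most with transcript length. Their slopes were -0.0319 and -0.0778 log2 units for each doubling of length, against -0.0185 to 0.0386 in the other brains. The slope of brain 3 was thus no farther from 0 than the highest of the others, and brain 4 alone lay clearly outside. Liver 3 of the 36-month controls of 8 weeks carried intestine genes, and skin 2 of the 12-month and skin 3 of the 36-month controls of 3 weeks carried testis and muscle genes. Values of those genes are not given here. In bulk tissue, fewer cells of a type and less RNA per cell cannot be told apart.

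In brain, 6 of the genes were well expressed and aqp4 was close to its detection limit. Median RPKM over the 24 brains was 663 for s100b, 626 for glula, 391 for slc1a2b, 179 for glulb, 160 for cyp19a1b and 36.5 for gfap. The s100b median ranked 41st among the 26403 genes with a median above 0, and the gfap median ranked 1984th. The order of the glutamate genes was firm, since glula stood above slc1a2b and slc1a2b above glulb in 24 of 24 brains. S100b stood above glula in 15 of 24 brains and glulb above cyp19a1b in 15 of 24, so those neighbours were not separated beyond their spread between fish. Cyp19a1b stood above gfap in 23 of 24 brains. Aqp4 had 0 to 5 counts per brain, 45 counts over all 24 brains and 0 counts in 7 of them. A count of 0 allows up to 3 counts, which is 0.0546 to 0.124 CPM at these depths and covers counting error only. Aqp4 therefore did not pass the filter on low counts in brain, and the 6 other genes were tested there.

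How far the genes varied between brains also differed. The coefficient of variation of the RPKM over 24 brains was 14.1% for slc1a2b and 15.6% for glula, the glutamate transporter and the more abundant synthetase. It was 23.7% for glulb, 29.4% for s100b, 39.7% for gfap and 51.7% for cyp19a1b. The brain aromatase gene spanned a 14.4-fold range of RPKM, from 25.4 to 364, with both ends in 2 of the 3 control brains of 12 months at 8 weeks. These coefficients include differences between the groups.

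**Figure D1:**
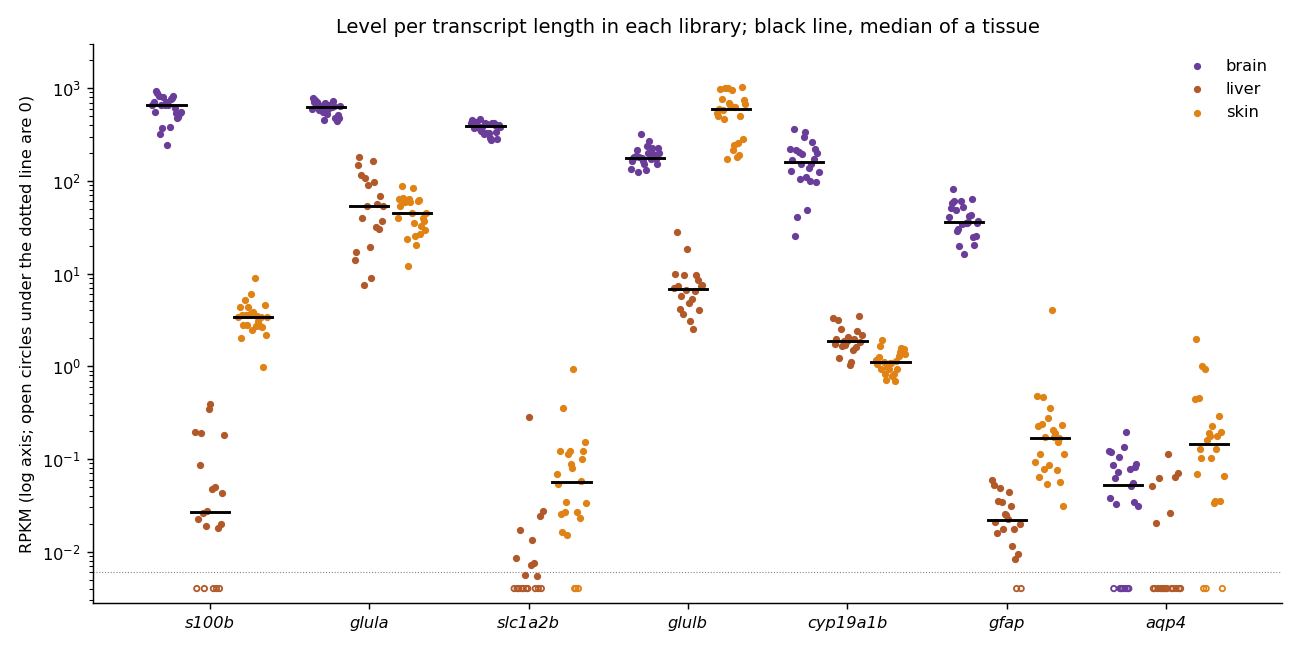
Deposited RPKM of the 7 genes in each library, on a log axis, for brain (24 libraries), liver (20) and skin (24), with the median of a tissue as a black line and libraries at 0 as open circles under a dotted line. In brain the medians run from 663 for s100b to 36.5 for gfap, while aqp4 has a median of 0.0529, and in skin glulb has the highest median of the 7, at 595.

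Between tissues, 6 of the 7 genes were called higher in brain than in liver, and 5 were called higher and 2 lower in brain than in skin. In one fit of all 68 libraries, 82.3% of genes were called in either direction between brain and liver and 83% between brain and skin, so a call by itself sets a gene little apart. Gfap and slc1a2b did not pass the filter in liver, and aqp4 passed it in skin alone, so each entered the fit through a tissue where it is high, and its call against a tissue where it failed the filter lends no support. The differences of the neural genes were large. Slc1a2b was 14.52 ± 0.75 log2 units higher in brain than in liver and 11.69 ± 0.57 higher than in skin, where its median RPKM was 0.00271 in liver and 0.0560 in skin, with 10 of 20 livers and 3 of 24 skins at 0 counts. S100b was 11.61 ± 0.45 log2 units higher in brain than in liver and 7.03 ± 0.30 higher than in skin. Gfap was 9.0007 ± 0.48 log2 units higher than in liver and 6.98 ± 0.35 higher than in skin. Several of these livers held 0 to 3 counts, so the fitted fold changes of slc1a2b, s100b and gfap against liver depend on the prior count of the fit.

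Cyp19a1b was also detected in each liver and skin. It stood at a median RPKM of 160 in brain, 1.87 in liver and 1.11 in skin. The lowest library had 83 counts of it. The brain level was 4.796 ± 0.24 log2 units above liver and 6.79 ± 0.23 above skin. Aqp4 had its highest levels in skin, up to 56 counts in 1 library with a median of 4.5, against 0 to 5 counts per brain and 0 to 4 counts per liver.

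The paired glutamine synthetase genes were set differently in the 3 tissues. Glula had a median RPKM of 626 in brain, 53.3 in liver and 45.2 in skin. Glulb had a median RPKM of 179 in brain, 6.82 in liver and 595 in skin. In brain against skin, glula was called higher by 3.32 ± 0.21 log2 units and glulb called lower, at -2.02 ± 0.18. Of the summed RPKM of the pair, glula made up 76.3 ± 4.49% in brain (n = 24), 84.3 ± 10.3% in liver (n = 20) and 8.97 ± 5.20% in skin (n = 24). The highest skin, at 25.4%, stood below the lowest brain, at 66.5%, and the lowest liver, at 63.5%. The log2 ratio of glula over glulb was 5.26 ± 0.82 higher in the brain than in the skin of the same fish (SD, higher in 24 of 24 fish). A two-sided permutation test over fish gave p = 2e-05, the smallest that its permutations can give. Against liver the ratio was lower in brain by a difference of -1.16 ± 1.33, and it was higher in brain in 2 of 20 fish (permutation p = 0.00088). Those 2 fish made up the whole liver group of 12-month controls of 3 weeks, so the order was not the same in every group. Group means of the liver share ran from 64.9% there (n = 2) to 92.2% in 12-month controls of 8 weeks (n = 3). Reads of these near copies could have been split in counting. A further copy, glulc (listed as zgc:152741), had 21 to 174 counts per brain, 0 to 4 per liver and 0 to 94 per skin.

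**Figure D2:**
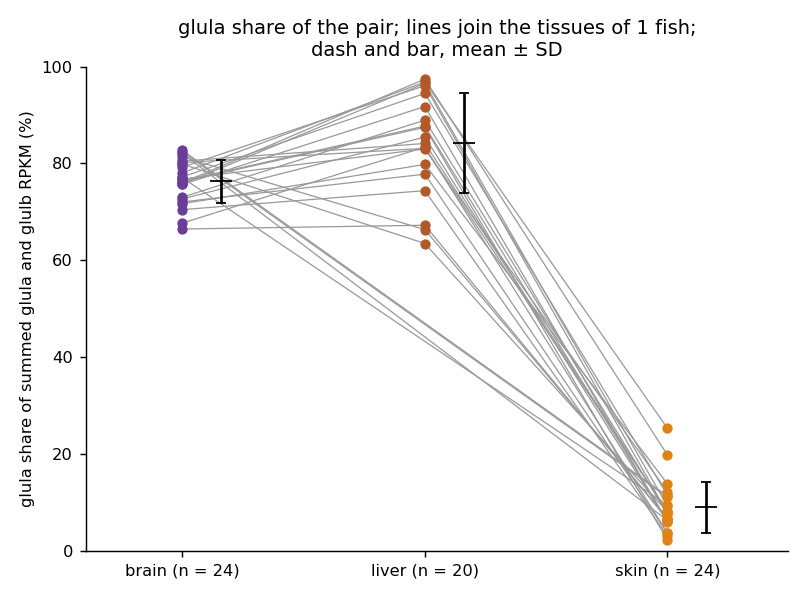
Share of glula in the summed RPKM of glula and glulb, in percent, in brain (n = 24), liver (n = 20) and skin (n = 24); points are libraries, lines join the tissues of 1 fish, and the dash and bar give the mean and SD. Brain shares lie between 66.5 and 82.7%, liver shares between 63.5 and 97.4%, and skin shares between 2.30 and 25.4%.

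Within brain, group means of the glula share lay between 73.8 and 81.2%. It was 74.7 ± 3.37% in rotenone brains of 3 weeks (n = 5) and 75.1 ± 8.17% in their 36-month controls (n = 3). It was 73.8 ± 3.71% in rotenone brains of 8 weeks (n = 6) and 77.7 ± 4.11% in their 36-month controls (n = 4). Controls of 12 months had 81.2 ± 1.29% at 3 weeks and 78.5 ± 2.46% at 8 weeks (n = 3 each). At both times the range of the 36-month controls covered that of the 12-month controls.

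Rotenone for 3 weeks addressed the early response of the 36-month brain. Of the 6 genes tested, 4 had log2 fold changes above 0 and 2 below, with a median of 0.21 against -0.00 over all genes. None was called, and 0% of the 23032 genes were called. DESeq2 and limma-voom called none of the 6 either, and 1 gene had an unadjusted p under 0.05. The glial filament gene gfap had 93.9, 90.9, 99.6, 137 and 113 CPM in rotenone brains, against 75.5, 81.5 and 50.9 CPM in controls. Every rotenone brain stood above every control, as it did for 1.95% of all genes, and the log2 fold change was 0.62 ± 0.36 (adjusted p 0.437). Glula was the other gene whose groups did not overlap.

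Glula had 1339, 1428, 1494, 1674 and 1551 CPM in rotenone brains, against 1261, 1261 and 1336 CPM in controls. Its lowest rotenone brain thus lay just above its highest control, and the log2 fold change was 0.22 ± 0.14 (adjusted p 0.46). S100b had 833, 460, 998, 1189 and 1013 CPM in rotenone brains, against 387, 818 and 441 CPM in controls. Rotenone brain 2 fell within the range of the controls and the 4 others stood above it, and the log2 fold change of 0.71 ± 0.31 was the 1 with an unadjusted p under 0.05 (p 0.0316, adjusted 0.365). Without rotenone brains 3 and 4, the value for s100b was 0.49 ± 0.34, that for gfap 0.52 ± 0.40 and that for glula 0.16 ± 0.15.

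The remaining brain genes overlapped after 3 weeks. Brain aromatase, cyp19a1b, had 467, 200, 602, 519 and 620 CPM in rotenone brains, against 167, 868 and 422 CPM in controls, a log2 fold change of -0.01 ± 0.57. The controls alone spread over both ends of that range, and the 95% interval of the difference ran from -1.19 to 1.16. Slc1a2b had 1692, 1314, 1251, 1396 and 1708 CPM in rotenone brains, against 1474, 1914 and 1377 CPM in controls (-0.11 ± 0.14). Glulb had 570, 459, 675, 507 and 528 CPM in rotenone brains, against 284, 424 and 727 CPM in controls (0.20 ± 0.21). For the transporter the 95% interval of the difference was -0.40 to 0.18.

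**Figure D3:**
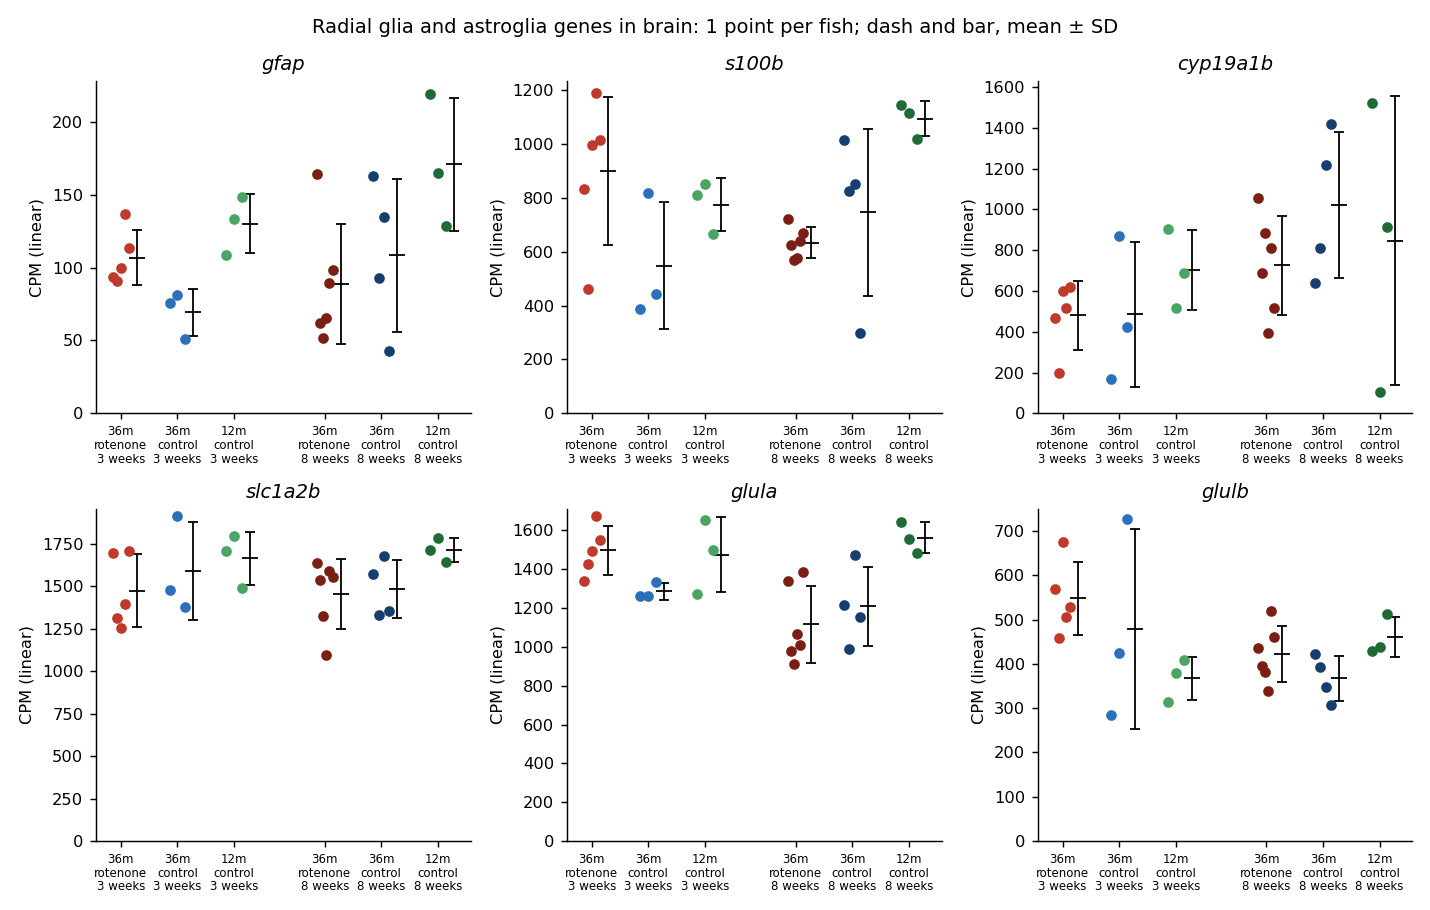
CPM of the 6 tested genes in each of the 24 brains, on linear axes from 0, by group (36-month rotenone, 36-month control, 12-month control, at 3 and at 8 weeks); points are fish, and the dash and bar give the mean and SD. At 3 weeks the 5 rotenone brains lie at 90.9 to 137 CPM for gfap, above the 3 controls of 36 months at 50.9 to 81.5 CPM, and at 8 weeks the groups overlap.

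After 8 weeks of rotenone, 1 of the 6 genes had a log2 fold change above 0 and 5 below, with a median of -0.18 against 0.01 over all genes. None was called by edgeR, DESeq2 or limma-voom, and none had an unadjusted p under 0.05, while 0.0304% of all genes were called. Gfap had 164, 61.8, 51.8, 65.4, 89.4 and 98.4 CPM in rotenone brains, against 163.05, 92.6, 135 and 43.0 CPM in controls, a log2 fold change of -0.29 ± 0.31. S100b had 721, 626, 567.6, 578, 639 and 670 CPM in rotenone brains, against 1013, 826, 849 and 299 CPM in controls (-0.24 ± 0.26). The rotenone brains were closely grouped for s100b, and 3 of the 4 controls stood above all of them while the fourth stood below. Cyp19a1b had 1057, 686, 884, 393, 812 and 519 CPM in rotenone brains, against 640, 813, 1216 and 1421 CPM in controls (-0.50 ± 0.50).

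The glutamate genes also overlapped at 8 weeks. Glula had 1338, 979, 914, 1068, 1011 and 1385 CPM in rotenone brains, against 1217, 987, 1476 and 1154 CPM in controls (-0.12 ± 0.12). Glulb had 436, 396, 382, 340, 520 and 462 CPM in rotenone brains, against 422, 393, 348 and 307 CPM in controls (0.20 ± 0.18). Slc1a2b had 1098 to 1634 CPM with a median of 1545 in rotenone brains, against 1572, 1328, 1675 and 1351 CPM in controls. Its log2 fold change of -0.02 ± 0.12 had a 95% interval of -0.28 to 0.23, and the adjusted p was 0.999 for each of the 6 genes.

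The difference between the rotenone contrasts, 8 weeks minus 3 weeks, called none of the 6 genes by edgeR, DESeq2 or limma-voom, and 0% of all genes. Of the 6 genes, 1 had an unadjusted p under 0.05. S100b differed by -0.95 ± 0.40 log2 units (p 0.0291, adjusted 0.62), gfap by -0.92 ± 0.47 (adjusted 0.62) and glula by -0.33 ± 0.18 (adjusted 0.62). The median over the 6 genes was -0.41, against 0.00 over all genes.

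**Figure D4:**
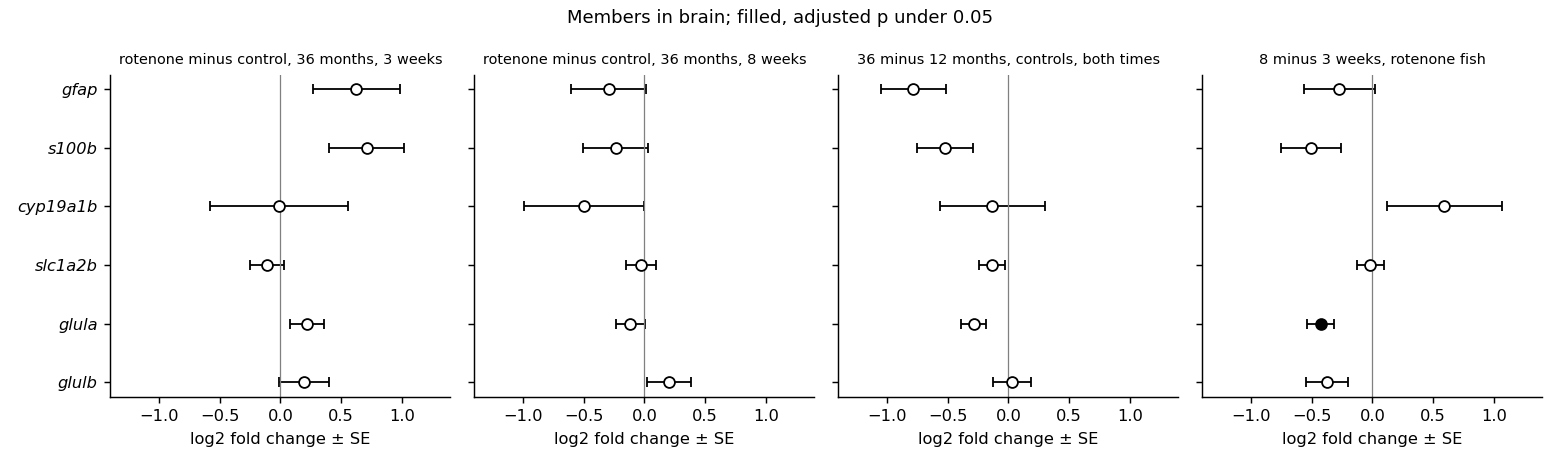
Log2 fold changes of the 6 tested genes in brain with bars of 1 standard error, for rotenone at 3 and at 8 weeks, age pooled over both times, and 8 against 3 weeks in rotenone fish. A filled point marks an adjusted p under 0.05, which glula in the panel of 8 minus 3 weeks has, at -0.42, and none of the other points; for age gfap lies at -0.78 and s100b at -0.52.

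Age was compared between the controls of 36 and of 12 months, pooled over both times. Of the 6 genes, 5 had log2 fold changes below 0 and 1 above, with a median of -0.21 against 0.01 over all genes. The quasi-likelihood test called none of them, against 1.98% of all genes, and 3 had an unadjusted p under 0.05. These were gfap at -0.78 ± 0.27 (p 0.00838, adjusted 0.163), glula at -0.28 ± 0.10 (p 0.0123, adjusted 0.197) and s100b at -0.52 ± 0.23 (p 0.0338, adjusted 0.328). DESeq2 called none, and limma-voom with quality weights called gfap (-0.76, adjusted p 0.043) and glula (-0.29, adjusted p 0.0462). The share of all genes called by limma-voom is not given here, so these calls have no background beside them. Slc1a2b was at -0.14 ± 0.11, cyp19a1b at -0.13 ± 0.43 and glulb at 0.03 ± 0.16.

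At 3 weeks, gfap had 75.5, 81.5 and 50.9 CPM in 36-month controls, against 108, 134 and 148 CPM in 12-month controls. All 36-month brains stood below all 12-month brains, as for 7.19% of all genes, with a log2 fold change of -0.91 ± 0.40 (adjusted p 0.565). At 8 weeks it had 163.05, 92.6, 135 and 43.0 CPM in 36-month controls, against 219, 165 and 128 CPM in 12-month controls (-0.66 ± 0.36, adjusted p 0.653), and these groups overlapped. At neither time was any of the 6 genes called by edgeR or DESeq2, against 0.0304% of all genes at 3 weeks and 0.122% at 8 weeks. At each time 1 gene had an unadjusted p under 0.05.

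For 3 genes the groups did not overlap between the ages at 8 weeks, each with every 36-month brain below every 12-month brain, as for 7.79% of all genes. Glula had 1217, 987, 1476 and 1154 CPM in 36-month controls, against 1644, 1557 and 1484 CPM in 12-month controls (-0.37 ± 0.14, adjusted p 0.364; by limma-voom -0.41, adjusted p 0.0346). S100b had 1013, 826, 849 and 299 CPM in 36-month controls, against 1144, 1115 and 1020 CPM in 12-month controls (-0.55 ± 0.31, adjusted p 0.673). Glulb had 422, 393, 348 and 307 CPM in 36-month controls, against 430, 439 and 512 CPM in 12-month controls (-0.32 ± 0.21, adjusted p 0.765). The gaps were narrow, since the highest 36-month brain lay within 10 CPM of the lowest 12-month brain for each of the 3 genes.

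At 3 weeks the same genes overlapped. Glulb had 284, 424 and 727 CPM in 36-month controls, against 315, 380 and 408 CPM in 12-month controls. S100b had 387, 818 and 441 CPM in 36-month controls, against 810, 849 and 665 CPM in 12-month controls. The difference of the age effects, 8 weeks minus 3 weeks, was called for none of the 6 genes by any of the 3 tools, against 0.00434% of all genes, and glulb had the 1 unadjusted p under 0.05 (-0.70 ± 0.31, p 0.0362, adjusted 1). Cyp19a1b did not separate the ages at either time, with 906, 516 and 686 CPM in 12-month controls at 3 weeks and 1522, 107 and 914 CPM at 8 weeks.

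In brain, edgeR called 1 change of a member gene, in the rotenone fish, between the samplings of 8 and 3 weeks. Glula averaged 1116 ± 197 CPM at 8 weeks (n = 6), against 1497 ± 126 CPM at 3 weeks (n = 5). Its log2 fold change was -0.42 ± 0.11 (adjusted p 0.0282), and 5 of the 6 brains of 8 weeks stood below all 5 brains of 3 weeks. The highest of those 5 brains of 8 weeks lay only just under the 1339 CPM of the lowest brain of 3 weeks. Of all genes, 8.96% were called in this contrast, so 1 of 6 is not far from that background. The other synthetase, glulb, averaged 423 ± 63.8 CPM at 8 weeks and 548 ± 81.6 CPM at 3 weeks (-0.37 ± 0.17, adjusted p 0.136). S100b averaged 634 ± 57.4 CPM at 8 weeks and 899 ± 275 CPM at 3 weeks (-0.50 ± 0.25, adjusted p 0.163), and without rotenone brain 2 of 3 weeks it was called (-0.67, adjusted p 0.0466).

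The glula call was lost without the rotenone brains 3 and 4 of 3 weeks together (-0.36, adjusted p 0.137), with the 2 groups fitted alone (-0.43, adjusted p 0.146) and with limma-voom (-0.35, adjusted p 0.0604). DESeq2 called it (-0.42, adjusted p 0.00665). It was also lost when brain 3 or 4 of 3 weeks, or brain 2, 3, 4 or 5 of 8 weeks, was left out alone (adjusted p 0.054 to 0.0654). Gfap was at -0.27 ± 0.29, slc1a2b at -0.02 ± 0.11 and cyp19a1b, in the other direction, at 0.59 ± 0.47. In the controls of both ages together, the same contrast gave a log2 fold change of -0.00 ± 0.10 for glula. None of the 6 genes was called there by any of the 3 tools and none had an unadjusted p under 0.05, against 0.122% of all genes called. For glula the test of rotenone fish against 36-month controls is the difference of the rotenone contrasts given above, -0.33 ± 0.18, which was not called.

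The shares of counts held by hox genes and by myelin genes moved with some of these genes. What these shares say about the dissected tissue was not tested. Hox genes, which are active in hindbrain and spinal cord and silent further forward, formed a list that was chosen after values were seen. The 49 matched hox genes held 0.000245 to 0.0179% of the counts, a 73-fold range. Of the 24 brains, 3 lay below 0.001%, at 0.000651% (36-month control 3 of 3 weeks), 0.000245% (36-month control 4 of 8 weeks) and 0.000767% (rotenone brain 3 of 8 weeks), and the 21 others lay between 0.00479 and 0.0179%. The 3 brains with few hox counts had the lowest gfap values of all 24, at 50.9, 43.0 and 51.8 CPM.

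Among the other 21 brains, with group means removed, the log2 CPM of gfap correlated with the hox share (Pearson r 0.663, Spearman rho 0.669, and r 0.517 without the 2 brains farthest in hox share). The same held for glula (r 0.723, rho 0.658, and 0.597 without 2 brains). For the 4 other genes r lay between -0.193 and 0.083. With the 3 separate brains included the values moved, to r 0.825 for gfap, 0.409 for glula, 0.587 for s100b (rho 0.499) and 0.348 for slc1a2b, so those of s100b and slc1a2b rest on the 3 brains. A list of 22 matched forebrain genes, also chosen after values were seen, gave over 24 brains r -0.582 for s100b (rho -0.306, and r -0.216 without the 2 brains farthest in share), r -0.418 for gfap (rho -0.27, and r 0.045) and r 0.346 for cyp19a1b (rho 0.568, and r 0.297). These are descriptions over brains that share their libraries with the tests. With the hox share as a covariate the age value of gfap was -0.34 ± 0.19 (adjusted p 0.576), and without the 3 brains it was -0.56 ± 0.23 (adjusted p 0.379). The rotenone value of gfap at 3 weeks was 0.18 ± 0.23 with the covariate and 0.44 ± 0.32 without the 3 brains. The hox share was uneven between the groups compared. Its median at 3 weeks was 0.00561% in 36-month controls, 0.0135% in 12-month controls and 0.00934% in rotenone brains, with overlapping ranges. The covariate can therefore also take up differences by age or treatment, and the part of the hox share in the gfap values was not tested. For glula, the fall in rotenone fish was -0.40 with the covariate (adjusted p 0.0366) and -0.37 without the 3 brains (adjusted p 0.0768).

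S100b moved with myelin genes. The 18 matched genes of oligodendrocytes and myelin held 0.638 to 1.26% of the counts in rotenone brains of 3 weeks, against 0.695 to 1.17% in 36-month and 1.07 to 1.54% in 12-month controls. At 8 weeks they held 0.792 to 1.34% in rotenone brains, against 0.5 to 1.32% in 36-month and 1.70 to 1.75% in 12-month controls. Over 24 brains with group means removed, s100b correlated with that share at r 0.887 (permutation p 0.00023, adjusted 0.00276 over 12 relations) and rho 0.796 (p 0.00126, adjusted 0.0151). Without the 2 brains farthest in share, r was 0.747. With the share as a covariate, added after the data were seen, the age value of s100b turned to 0.14 ± 0.15 pooled and 0.26 ± 0.20 at 8 weeks. The ages did not overlap in share at 8 weeks, so share and age cannot be told apart there. With the same covariate, s100b between 8 and 3 weeks in rotenone fish was at -0.58 ± 0.13 and was called (adjusted p 0.00938). The share of all genes called in that fit is not given here. The part of myelin content in the s100b values was not tested. None of the other 11 relations, of the 6 genes to the shares of myelin or neuron genes, passed the adjustment.

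**Figure D5:**
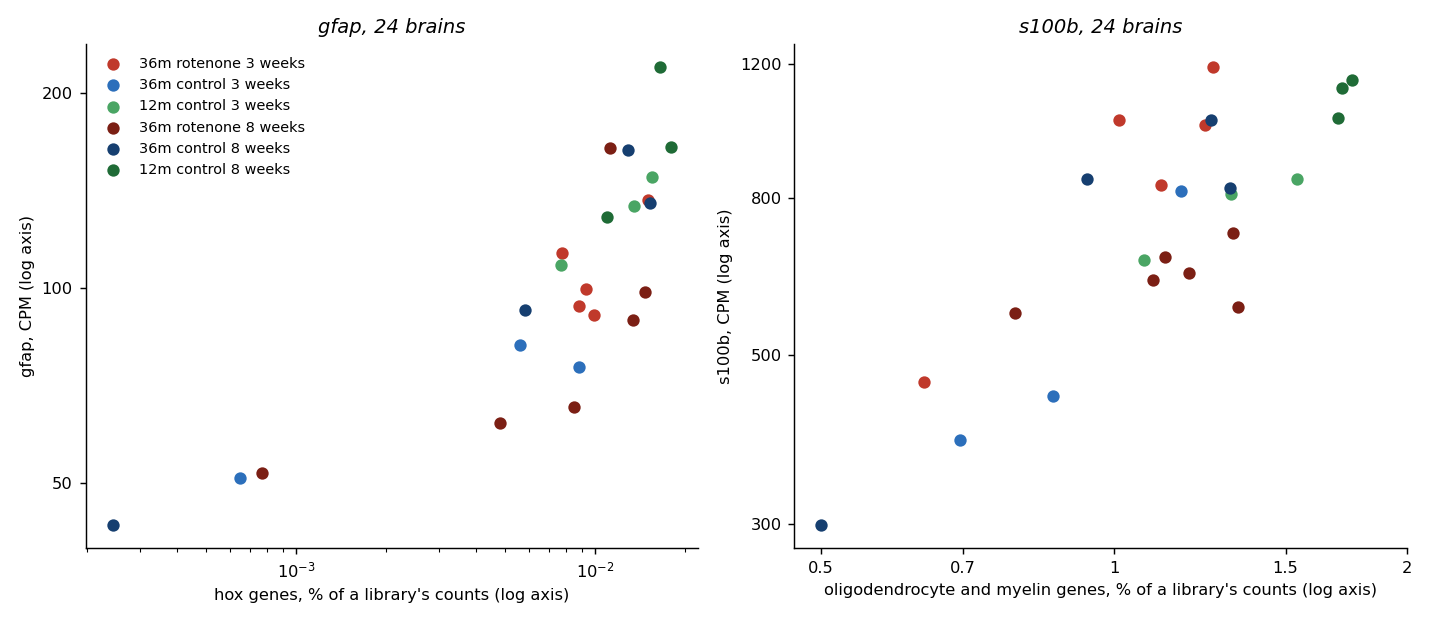
Left, CPM of gfap against the share of counts in hox genes, and right, CPM of s100b against the share in oligodendrocyte and myelin genes, for 24 brains on log axes, coloured by group. The 3 brains under 0.001% hox counts have the lowest gfap values, 43.0 to 51.8 CPM, and s100b rises with the myelin share, which runs from 0.5 to 1.75%.

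Among the member genes themselves, 15 pairs were compared over the 24 brains with group means removed. Gfap and s100b moved together, at r 0.671 (permutation p 0.00012, adjusted 0.0018) and rho 0.641 (p 0.00033, adjusted 0.00495), with r 0.545 without the 2 brains farthest in gfap. Without the 3 brains of low hox share that r was 0.388. Gfap and glula reached r 0.603 (permutation p 0.0223, adjusted 0.157) and rho 0.663 (p 0.00287, adjusted 0.0215), and r was 0.725 without the 3 brains. Cyp19a1b and gfap, both radial glial genes, had r 0.031 and rho 0.04 (permutation p 0.881 and 0.871). Glula and glulb, the paired synthetases, had r 0.143 and rho 0.21 (permutation p 0.421 and 0.36).

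The genes most like each member over the 24 brains, among 12209 genes with a mean of at least 5 CPM, differed between the members. After group means were removed, gfap was closest to stm (r 0.897), hoxc5a (0.806) and wnt7aa (0.797). Cyp19a1b was closest to isl1 (0.831), SCGN (0.829) and dlx2a (0.782), of which isl1 and dlx2a encode homeodomain factors. Glula was closest to canx (0.809), WDPCP (0.788) and gli1 (0.778), and glulb to ivns1abpb (0.785), ggt5a (0.781) and slc47a1 (0.753). The transporter gene slc1a2b was closest to SLC7A10 (2 of 2), an amino acid transporter gene (0.797), msi1 (0.787) and pacsin3 (0.781). S100b was closest to pisd (0.925), elovl1b (0.918) and GAS7 (2 of 2) (0.907). Without rotenone brains 3 and 4 of 3 weeks these r lay between 0.748 and 0.925. The largest of so many values is high by selection, and no test was made.

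Other known radial glial and astroglial genes gave a wider view, with 54 genes matched to a list of 62 symbols and 52 tested in brain. The highest levels among them were those of aldocb, a glial glycolysis enzyme (1148 ± 90.0 RPKM, n = 24), and fabp7a, the brain fatty acid binding protein (676 ± 165 RPKM). Next came the gap junction gene cx43 (320 ± 59.6), the sodium pump subunit gene atp1a1b (313 ± 76.1), the lipoprotein gene apoeb (163.04 ± 38.2) and FGFBP3 (157.3 ± 50.0). With age, none of the 52 rose and 3 fell, against 323 genes higher and 132 lower of all 23032 tested (1.98% in both directions). The 3 were notch3, a receptor of the Notch pathway (-0.41 ± 0.09, adjusted p 0.0173), fgfr2, an FGF receptor gene (-0.40 ± 0.09, adjusted p 0.0298), and mlc1, a glial membrane protein gene (-0.64 ± 0.16, adjusted p 0.0345). The median of the list was -0.13, against 0.01 over all genes. Lists of several other cell types lay further from 0, at -0.24 for oligodendrocytes (4 of 18 genes above 0), -0.25 for ependyma (2 of 17), -0.21 for endothelium and mural cells (4 of 22), -0.34 for dividing cells and neuroblasts (8 of 27) and 0.30 for microglia and macrophages (16 of 22). The medians of 11 eye genes, -1.11, and 11 pituitary genes, -1.20, were lower still, and the part of these cell types in the glial values was not tested. Notch3 also marks mural cells of vessels.

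Rotenone called none of the 52 genes at 3 weeks, with a list median of 0.17 against -0.00 over all genes, and none at 8 weeks, with a median of 0.13 against 0.01. Of all genes, 0% and 0.0304% were called there. The medians of 11 pituitary genes were 2.02 at 3 weeks (9 above 0) and 2.74 at 8 weeks (8 above 0). Those of 11 eye genes were 1.43 (11 above 0) and 0.05 (7 above 0), and none of either list was called. Fabp7a was at 0.64 ± 0.23 at 3 weeks (adjusted p 0.359) and -0.17 ± 0.20 at 8 weeks (adjusted p 0.999). Between 8 and 3 weeks in rotenone fish, none of the 52 rose and 4 fell, which is no larger a share than the 8.96% of all genes called (559 higher, 1505 lower). They were apoeb (-0.75 ± 0.15, adjusted p 0.00636), cd63, a tetraspanin gene (-0.59 ± 0.12, adjusted p 0.00945), mdka, a midkine growth factor gene (-0.66 ± 0.15, adjusted p 0.0136), and fabp7a (-0.74 ± 0.18, adjusted p 0.0214). The list median was -0.18, against -0.01 over all genes. In the same contrast 8 of 22 microglia and macrophage genes fell and none rose, led by c1qb (-1.43 ± 0.25, adjusted p 0.003). The summed microglia and macrophage genes held 0.104 to 0.158% of the counts at 8 weeks, against 0.140 to 0.302% at 3 weeks. Set against the same 8.96%, 3 of 11 eye genes fell, while 1 of 7 blood genes rose, 1 of 18 oligodendrocyte genes rose and 2 fell, and none of 25 neuron genes was called. The part of these cell types in the values of the glial genes was not tested.

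Around the glutamate genes, 30 further genes of glutamate and glutamine handling matched, 27 were tested, and none was called for rotenone at 3 or 8 weeks, for pooled age or between 8 and 3 weeks in rotenone fish. The list medians there were 0.04, 0.06, -0.09 and 0.03. Of all genes, 0%, 0.0304%, 1.98% and 8.96% were called in those contrasts. Beside aqp4, 33 genes of water channels and the endfoot complex were tested. With age, where 1.98% of all genes were called, 2 of them rose and 1 fell. Higher were aqp8b (1.87 ± 0.31, adjusted p 0.00381) and CU467853.3 (1.28 ± 0.27, adjusted p 0.0162), and mlc1 was lower. The current symbol of CU467853.3 is also aqp8b, so these 2 entries may not be separate genes and cannot be taken as independent rises. Both were low in brain, at means of 0.625 RPKM for aqp8b and 1.1041 RPKM for CU467853.3. Among 27 tested genes of estrogen synthesis and response, 1 was called for age, against the same 1.98% of all genes. It was the gonadal aromatase gene cyp19a1a, which rose (1.39 ± 0.34, adjusted p 0.0387). Its mean of 1.39 RPKM in brain lay far under the 160 median RPKM of cyp19a1b. In this list 3 of 27 fell between 8 and 3 weeks in rotenone fish, which is not far from the 8.96% of all genes called. The first by p was star, which brings cholesterol into mitochondria (-1.21 ± 0.29, adjusted p 0.0175), at a mean of 0.954 RPKM in brain.

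Of 17 intermediate filament genes beside gfap, the neurofilament gene nefm alone was called for age (-1.67 ± 0.41, adjusted p 0.0345), against 1.98% of all genes. The list median was -0.25. None was called for rotenone at 3 or 8 weeks, with medians of 0.28 and 0.10, where 0% and 0.0304% of all genes were called. None of 10 tested S100 genes was called in these contrasts. Among 36 tested genes of reactive glia and injury response, none was called for rotenone at 3 or 8 weeks, against the same 0% and 0.0304%. The list medians were 0.22 at 3 weeks (25 of 36 above 0) and 0.01 at 8 weeks (20 of 36). Over all genes they were -0.00 and 0.01. With age, against the same 1.98%, 1 of the 36 rose and 1 fell. The gene nfkbiaa, an NF-kappa-B inhibitor gene, rose (1.09 ± 0.21, adjusted p 0.0087). The gene tnc, which encodes the matrix protein tenascin C, fell (-0.44 ± 0.11, adjusted p 0.0472). In rotenone fish, 2 of the 36 rose and 2 fell between 3 and 8 weeks, not far from the 8.96% of all genes called. Higher at 8 weeks were tnc (0.50 ± 0.13, adjusted p 0.0232) and c3b, a complement gene (4.74 ± 1.45, adjusted p 0.0462). The level of c3b was low, at a mean of 0.560 RPKM in brain. Lower were mt2, a metallothionein gene (-2.09 ± 0.33, adjusted p 0.00154), and atf3 (-0.97 ± 0.20, adjusted p 0.00949).

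In skin, none of the 7 genes was called for rotenone at 3 weeks (0% of all genes), rotenone at 8 weeks (5.29%), pooled age (2.41%) or 8 against 3 weeks in controls (3.26%) by edgeR or DESeq2. The numbers with an unadjusted p under 0.05 there were 1, 2, 0 and 3. Between 8 and 3 weeks in rotenone fish 1 rose and 1 fell, against 13.4% of all genes called. Cyp19a1b was at 5.44, 5.43, 6.38, 6.04, 6.18 and 6.35 CPM at 8 weeks, against 3.601, 3.68, 2.88, 4.75 and 4.01 CPM at 3 weeks. All 6 skins of 8 weeks stood above all 5 of 3 weeks, as for 3.72% of all skin genes (0.66 ± 0.17, adjusted p 0.0172). They also stood above the 4 controls of 36 months at 8 weeks, which had 4.01, 4.07, 4.90 and 5.09 CPM, as for 4.71% of all skin genes (0.40 ± 0.19, adjusted p 0.201).

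The fall of gfap in the same skins (-3.03 ± 0.90, adjusted p 0.0303) rested on 1 library. Gfap had 0.0802 to 0.582 CPM with a median of 0.373 at 8 weeks, against 11.9, 0.583, 0.451, 0.515 and 0.209 CPM at 3 weeks. Without the first rotenone skin of 3 weeks, the value was -0.41 ± 0.63 (adjusted p 0.752), and slc1a2b, at 0 to 3 counts in the 4 remaining skins of 3 weeks, was then called higher. The call was also lost without rotenone skin 1, 2, 3 or 5 of 8 weeks (adjusted p 0.0526 to 0.0647), with the groups alone (0.0662) and with limma-voom (0.231). The first skin of 3 weeks also had the highest myelin gene share of the 24 skins, 0.0734%, and a neuron gene share of 0.00802%, against 0.00810% in the highest. Their part in the gfap value was not tested.

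Skin glula had 58.6, 65.0, 84.2, 77.0, 61.8 and 111 CPM in rotenone fish of 8 weeks, against 135, 132, 107 and 204.7 CPM in 36-month controls. In the rotenone group 1 skin stood within the range of the controls and 5 below it, and the log2 fold change of -0.92 ± 0.35 was not called (adjusted p 0.115). Limma-voom called it (-0.93, adjusted p 0.0177), as did the fit of those groups alone (-0.94, adjusted p 0.0269). For neither is the share of all genes called given here. Skin glulb, the copy that leads in this tissue, ranged from 453 to 2358 CPM with a median of 1393 in rotenone fish of 8 weeks, against 1702 to 2495 CPM in controls (-0.62 ± 0.43, adjusted p 0.416).

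In liver, 4 of the 7 genes passed the filter, and none of these was called for rotenone at 3 weeks (0% of all genes), rotenone at 8 weeks (7.36%) or pooled age (0.926%) by edgeR, DESeq2 or limma-voom. None had an unadjusted p under 0.05. For pooled age the median over all liver genes was 0.12, and the 4 genes lay below 0. Of the 4, s100b was near its detection limit, with a median of 1 count and 0 counts in 5 of 20 livers. Between 8 and 3 weeks in controls, where 7.35% of all genes were called, glula rose. In 12-month controls it had 346, 425 and 312 CPM at 8 weeks, against 21.1 and 32.8 CPM at 3 weeks. In 36-month controls it had 267, 125 and 136 CPM at 8 weeks, against 80.0 and 17.4 CPM at 3 weeks.

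The log2 fold change of liver glula over both ages was 2.80 ± 0.65 (adjusted p 0.0186), and at each age every liver of 8 weeks stood above every liver of 3 weeks, as for 3.41% of all liver genes. The call was lost with the control groups fitted alone (2.81, adjusted p 0.0844) and without 12-month control 1 or 2 or 36-month control 2 of 3 weeks (2.44 to 2.97, adjusted p 0.0605 to 0.141). In rotenone livers, glula had 92.3, 117, 73.4, 148, 81.8 and 148 CPM at 8 weeks, against 40.3, 18.7, 277 and 213 CPM at 3 weeks (-0.32 ± 0.57, adjusted p 0.805). The livers of 3 weeks thus held both the lowest and the highest values. Of all genes, 9.25% were called in that contrast. None of the 4 members was by edgeR, 2 had an unadjusted p under 0.05, and DESeq2 called 2 of them. The share of all genes that DESeq2 called is not given here. Glulb was at 1.16 ± 0.41 (adjusted p 0.0887; by DESeq2 1.18, adjusted p 0.0343) and cyp19a1b at 0.88 ± 0.30 (adjusted p 0.0752; by DESeq2 0.90, adjusted p 0.0243).

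Whether brain differed from the other tissues in its response was tested in the fit of all 68 libraries. None of the 7 genes was called for rotenone at 8 weeks in brain minus liver (5.54% of all genes), rotenone at 8 weeks in brain minus skin (0.0702%) or age in brain minus skin (0.226%). DESeq2 and limma-voom called none of them either, and none had an unadjusted p under 0.05 in any of the 3 contrasts. In liver, gfap, slc1a2b, s100b and aqp4 had median counts of 2, 0.5, 1 and 0. A liver response of these genes could hardly be seen, so the result of brain minus liver says little about them. In skin, gfap, slc1a2b and aqp4 were also low, at medians of 13, 6.5 and 4.5 counts, and aqp4 had 0 to 5 counts per brain. The differences were imprecise. For gfap, age in brain minus skin was -1.16 ± 0.75, with a 95% interval of -2.66 to 0.33.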

How the data were processed

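RNA was extracted with QIAzol and phenol/chloroform and turned into TruSeq libraries, as the labels' protocols state. The deposited tables hold raw whole-number counts for each gene in each library, and the authors' RPKM for the same libraries. The submitters' processing notes list CASAVA 1.8.2. The aligner, the counting program, the use of strand and the genome build were not given in the sources used here, so near copies and overlapping or antisense genes could share or split reads, and no coordinates are printed.

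Groups came from the labels. All 68 value columns were mapped, and 109 pairs of replicates differed far beyond sampling noise (chi-square per gene 15.79 to 1052). The counts were analysed in edgeR 4.0.16 (R 4.3.3): filterByExpr (minimum count 10, minimum total 15; 23032 genes in brain, 20190 in liver, 22682 in skin), TMM, 1 robust quasi-likelihood fit per tissue with its 6 groups, two-sided F test, Benjamini-Hochberg adjustment, threshold 0.05. Standard errors were derived from the log2 fold change and its F statistic. Contrasts between tissues used 1 fit of 68 libraries (25628 genes). The deposited RPKM served to compare levels between genes and gave gene lengths (30932 genes). The tests were checked on simulated data. Symbols come from the table, with current ones for 21028 genes from a name table.

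Alternatives were RLE size factors, no filter, DESeq2 1.42.0, voom with quality weights (limma 3.58.1), the groups of a contrast alone, a replicate or fish block, a length trend removed by a spline (4 degrees of freedom), libraries that stand apart left out and each library left out. Added after the data were seen were leaving out each fish or the 5 libraries apart in the tissue fit, the hox and myelin shares as covariates and leaving out 3 brains. Correlations used log2 CPM (prior count 2), group means removed, and 100000 permutations (scipy 1.17.1).

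The 7 genes and the gene lists were chosen with earlier results of these data known. Named from a list are members that pass the test (at most 4 by p) and, for other radial glial genes, the 6 of highest RPKM. Likeness names the 3 genes of highest r.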

Additional observations from a re-analysis of the deposited data

Results flagged for a closer look

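Among 44 combinations of a gene and a group of 4 to 6 fish, 6 (13.6%) had a library far from the others of its group. The rule marks about 1 in 20 groups of normally distributed values by chance. A group was looked at only if its highest count passed a minimum, so low groups could enter through the library that stands apart. The 13.6% therefore cannot be set against that rate. The 6 are also not independent, since 5 came from 1 fish, rotenone fish 1 of 3 weeks. In its skin, gfap was at 11.9 CPM (301 counts), against 0.209 to 0.583 CPM in the 4 other skins of the group. Slc1a2b there was at 4.23 CPM (107 counts), against 0 to 0.110 CPM, and s100b at 12.3 CPM (310 counts), against 3.45 to 4.23 CPM. In its liver, slc1a2b was at 1.11 CPM (38 counts), against 0.0283 to 0.0427 CPM in the 3 other livers, and s100b at 0.466 CPM (16 counts), against 0 to 0.0618 CPM. The sixth was glulb in skin 3 of the same group, at 1459 CPM against 426 to 618 CPM in the others.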

How the results depend on the processing

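Counts of called members stayed within 1.5 times the value reported in 282 cases with 1 library or fish left out and moved further in 17, and stayed in 202 cases under the other alternatives and moved in 17. In most left-out cases the reported count was 0, so these totals say little about stability. For 8 against 3 weeks, where the reported count was not 0, it moved in 7 of 11 cases in rotenone brains. It moved in 3 of 10 in control livers and 4 of 11 in rotenone skins. In brain, voom with quality weights called 2 members for pooled age and 1 for age at 8 weeks. For 8 against 3 weeks in rotenone brains, 1 called member became 0 without the libraries whose counts fall with length, with the groups of the contrast alone, with voom and without the 3 brains of low hox share, and 2 with the myelin share as a covariate. In liver, 8 against 3 weeks in controls gave 0 with the groups alone and 2 with DESeq2, and in rotenone fish 1 and 2. In skin, rotenone at 8 weeks gave 1 with the groups alone and with voom, and 8 against 3 weeks in rotenone fish gave 1 with each of these. With 1 library left out, the counts for 8 against 3 weeks ran from 0 to 2 in rotenone brains, 0 to 1 in both liver contrasts, 0 to 1 in control skins and 1 to 2 in rotenone skins.

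Some log2 fold changes near 0 changed sign. Rotenone at 3 weeks gave 0.17 for cyp19a1b with the length trend removed, 0.17 with voom and 0.13 with the hox share as a covariate, and for slc1a2b 0.053 with the length trend removed and 0.090 with voom. Pooled age gave -0.00041 for glulb with the length trend removed, -0.0013 with the hox share and -0.15 without the 3 brains, and for s100b 0.14 with the myelin share, as did age at 8 weeks with 0.26. Slc1a2b between 8 and 3 weeks in rotenone fish gave 0.0088 with the hox share and 0.011 without the 3 brains, and aqp4 in brain against liver gave -0.32 with voom. With 1 library left out, cyp19a1b ran from -0.42 to 0.71 for rotenone at 3 weeks and from -0.49 to 0.23 for age. Glulb ran from -0.071 to 0.63 and from -0.19 to 0.16 in these contrasts. Slc1a2b ran from -0.20 to 0.046 for rotenone at 3 weeks, -0.074 to 0.045 at 8 weeks and -0.069 to 0.054 between 8 and 3 weeks in rotenone fish. Aqp4 in brain against liver ran from -0.035 to 1.12 with each of the 20 fish that have all 3 tissues left out.

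Replicate numbers did not pair the brains: the 49 pairs of the same number had a median r of -0.00242, 7 of them over 0.1. Brain pairs of different numbers had a median r of -0.00603, 30 of them over 0.1. Livers and skins were not checked in this way. With the replicate block, liver 8 against 3 weeks in controls called 0 members and skin 8 against 3 weeks in rotenone fish 1, and cyp19a1b for pooled age turned to 0.028. A block by fish changed none of the 5 counts of the tissue fit. The causes of these shifts were not tested. Adjusted p-values that DESeq2 left empty were not counted. Groups of 2 to 6 fish limit every contrast, and at 0 to 5 counts a difference in brain aqp4 was not detectable at this depth.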
